A study of Mus musculus with 24 samples.

Results

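The 10 genes described here encode proteins of the leukocyte surface, lysosome or actin cytoskeleton, most of them shared by nearly all leukocytes and Itgam mainly by myeloid and natural killer cells: Ptprc, Itgam, Itgb2, Itgal, Cd48, Cd52, Cd53, Laptm5, Coro1a and Lcp1. They were chosen by their gene symbols, as 10 of the 36333 genes in the table, and all 10 passed the filter of a mean of at least 0.5 TPM (the share of all transcripts, after scaling by gene length) that left 17267 genes for testing. The libraries came from 24 male C57BL6N mice (strain as labelled) aged 12 to 16 weeks, 1 library per mouse, killed 5 days post injury (dpi). The methods of the paper instead name a J substrain and a narrower age range. Vehicle mice (n = 5) had traumatic brain injury (TBI) by controlled cortical impact (CCI) and received chow and saline without drug. PLX3397 mice (n = 5) had the same injury and chow with 290 mg/kg of PLX3397, which inhibits the receptor CSF1R, from 90 min after CCI. Anakinra mice (n = 5) had the same injury and 100 mg/kg of Anakinra, an antagonist of the interleukin-1 receptor IL1R1, under the skin at 5 min, 24 h, 48 h and 72 h. PLX3397+Anakinra mice (n = 5) had the injury and both drugs, and Sham mice (n = 4) had anesthesia and a skin incision without craniotomy, with vehicle treatment. According to the paper, mice without PLX3397 ate vehicle chow, and saline was the placebo for Anakinra. The labels call the tissue cortex, whereas the methods describe the upper brain quadrant with lesion, cortex, striatum, dorsal hippocampus and thalamus. The animal numbers of the Vehicle mice alone end in the letter B, and whether that letter marks a batch cannot be told apart from the vehicle treatment.

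Leukocytes are the blood-derived immune cells, and microglia, the resident macrophages of the brain, share most of their surface and motility genes. Integrins of the β2 family pair 1 β chain with different α chains and bind ligands such as ICAM proteins, which lets the cells attach and move through tissue. Coronins and plastins organise the actin filaments that carry this movement. CSF1R is the receptor on which microglia and many macrophages depend for survival, while the interleukin-1 receptor passes on an inflammatory cytokine signal. In a bulk sample, fewer cells of a type and less RNA per cell cannot be told apart.

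Because 9 of the 10 genes moved together and Coro1a did not, promoter sequences are shown for 4 genes of the first kind and for Coro1a. Itgam, Cd53 and Laptm5 were picked because they hold the motif in capitals, and Cd48 because it does not, so this choice shows no difference between the 9 genes and Coro1a. RefSeq promoters (GRCm38.p6; 250 bases before to 50 bases after a start site, 5′ to 3′ on the strand of the gene) were given for 7 members, namely Ptprc, Itgam, Cd48, Cd53, Laptm5, Coro1a and Lcp1. Capitals mark GAGGAA on either strand (TTCCTC on the other), the core of a site for the myeloid factor PU.1.
Itgam, chr7:128062390-128062689, plus strand: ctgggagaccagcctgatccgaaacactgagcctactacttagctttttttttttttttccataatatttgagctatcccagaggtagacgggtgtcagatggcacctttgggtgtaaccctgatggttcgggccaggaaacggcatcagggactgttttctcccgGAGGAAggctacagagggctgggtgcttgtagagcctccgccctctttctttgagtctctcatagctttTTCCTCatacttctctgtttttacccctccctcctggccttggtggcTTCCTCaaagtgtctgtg
Cd53, chr3:106790100-106790399, minus strand: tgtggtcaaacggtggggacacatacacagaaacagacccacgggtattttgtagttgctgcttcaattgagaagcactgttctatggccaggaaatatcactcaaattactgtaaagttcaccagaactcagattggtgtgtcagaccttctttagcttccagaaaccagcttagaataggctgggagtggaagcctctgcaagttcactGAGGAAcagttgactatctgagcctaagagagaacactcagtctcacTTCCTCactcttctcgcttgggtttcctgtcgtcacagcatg
Laptm5, chr4:130913066-130913365, plus strand: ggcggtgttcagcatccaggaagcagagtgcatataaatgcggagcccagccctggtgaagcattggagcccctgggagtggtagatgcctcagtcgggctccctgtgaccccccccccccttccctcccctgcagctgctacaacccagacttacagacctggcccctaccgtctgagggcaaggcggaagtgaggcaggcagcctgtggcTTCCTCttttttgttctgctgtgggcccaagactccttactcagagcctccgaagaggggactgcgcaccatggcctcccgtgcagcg
Cd48, chr1:171681742-171682041, plus strand: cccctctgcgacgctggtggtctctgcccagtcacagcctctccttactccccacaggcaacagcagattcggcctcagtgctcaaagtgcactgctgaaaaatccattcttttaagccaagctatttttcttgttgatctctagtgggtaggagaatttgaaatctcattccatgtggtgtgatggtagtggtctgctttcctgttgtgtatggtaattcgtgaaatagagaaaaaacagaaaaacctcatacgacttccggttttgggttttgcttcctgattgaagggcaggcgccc
Coro1a, chr7:126704767-126705066, minus strand: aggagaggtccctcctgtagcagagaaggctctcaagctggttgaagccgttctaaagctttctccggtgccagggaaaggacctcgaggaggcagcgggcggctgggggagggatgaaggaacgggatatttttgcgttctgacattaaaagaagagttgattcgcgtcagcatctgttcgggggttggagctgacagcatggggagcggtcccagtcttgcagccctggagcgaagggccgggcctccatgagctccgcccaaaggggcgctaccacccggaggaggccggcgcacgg
GAGGAA was found in 4 of the 10 promoters of these 7 members (1 each of Ptprc, Cd53, Laptm5 and Itgam, and none of Cd48 or Lcp1), and in 28.3% of all 32851 promoters of the same length. CACTTCC, an Ets type motif that can overlap with TTCCTC, was found in 3 of the 10 and in 11.004% of all promoters, on either strand. TATAAA was found in 2 of the 10 promoters and in 13.6% of all, and GGGCGG in 4 of the 10 and in 35.7% of all. Of the promoter of Coro1a printed above, 2 positions held GGGCGG, and none of the other 3 motifs was found. These matches describe the letters in these windows only.

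A few mice stood apart within their groups. Vehicle mouse J17B had the lowest value of the 5 Vehicle mice in 9 of the 9 genes without Coro1a, at 44.7% to 77.1% of the mean of the other 4 mice. PLX3397 mouse J02 had the highest value of its group in 7 of the 9, and PLX3397+Anakinra mouse J09 the lowest in 7 of the 9. In J17B the summed TPM of the homeostatic microglia markers was 1147, of the monocyte markers 55.9 and of the neutrophil markers 6.85, the lowest of the Vehicle mice in each, and of the neuronal markers 4523, the highest. Without J17B the number of members called stayed at 10 in Vehicle versus Sham, 10 in PLX3397 versus Vehicle and 9 in PLX3397+Anakinra versus Vehicle.

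Between Sham and Vehicle mice, 9 of the 10 genes rose at 5 dpi and Coro1a fell slightly. The ratio of the group means of the 9 genes ranged from 2.98 for Itgal to 23.4 for Cd52, with a median of 9.45. All 9 passed limma's test with Benjamini-Hochberg adjustment over all genes (largest adjusted p = 3.5e-05, for Itgal), and in all 9 the Vehicle mice lay above the Sham mice without overlap. Over all genes tested, 26.6% were called higher and 27.7% lower in this comparison, and in 42.7% the groups did not overlap in either direction. The log2 fold changes, on the scale of log2(TPM + 1), had a median of 2.76 over the 10 members and of -0.01 over all genes.

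With PLX3397, all 10 genes were lower than in Vehicle mice, and with PLX3397+Anakinra 9 of 10 were lower, the exception being Coro1a. The 9 genes without Coro1a had between 37.2% and 60.6% of the Vehicle mean with PLX3397 and between 30.4% and 42.1% with the combination. Over all genes tested, 6.66% were called lower with PLX3397 and 9.6% with the combination. The groups did not overlap in 9 members with PLX3397 and in 8 with the combination, where 6.89% and 10.7% of all genes did not overlap in either direction. By the 3 criteria of the study (unadjusted p below 0.05, a ratio of means above 2 and a difference above 4 TPM), 5 members were lower with PLX3397 and 8 with the combination, against 0.932% and 1.55% of all genes. Ptprc, Cd48 and Cd53 made up the difference, since they stood at 50.1%, 50.2% and 50.1% of the Vehicle mean with PLX3397, just short of a 2-fold change. Both comparisons share the 5 Vehicle mice.

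With Anakinra alone, 0 of the 10 genes passed the adjusted p, and 2 of them, Cd48 and Coro1a, were at an unadjusted p below 0.05 in limma, as were 12.4% of all genes. Over all genes, 0.0695% were called higher and 0.0463% lower, so that calls were rare in this comparison. The study's 3 criteria called 0 of the 10. The log2 fold changes of the 9 genes without Coro1a ranged from -0.44 for Cd48 to 0.05 for Itgal, with a median of -0.08. That median ran from -0.17 to -0.04 with 1 mouse left out, and all 9 values were below 0 without Vehicle mouse J17B, which gave the lowest median.

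**Figure D1:**
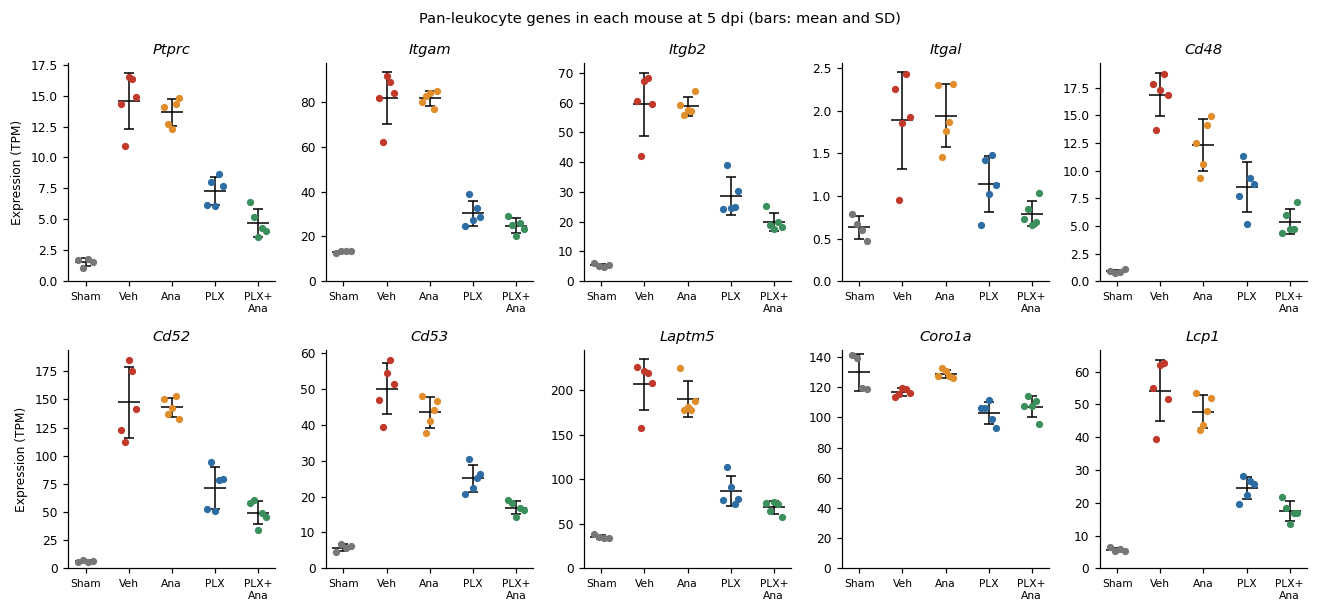
Expression in TPM (vertical axes, linear from 0) of each of the 10 genes in each of the 24 mice by group (Sham n = 4, others n = 5); dots are mice, and black bars give the mean and SD. In 9 panels the Vehicle and Anakinra mice lie highest and the Sham mice lowest on average, while the Coro1a panel spans only 92.8 to 142 TPM over all mice.

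Ptprc encodes CD45, the tyrosine phosphatase that sets the threshold of antigen receptor and Src family kinase signalling in all nucleated blood cells (NCBI gene 19264; chromosome 1 of GRCm38, 138062859 to 138175756, minus strand). The 4 Sham mice had 1.72, 1.11, 1.81 and 1.52 TPM of Ptprc, and the 5 Vehicle mice 14.3, 10.9, 16.5, 16.4 and 14.9 TPM. Anakinra mice had 14.1, 12.7, 12.3, 14.3 and 14.8 TPM, which lay inside the range of the Vehicle mice. PLX3397 mice had 6.14, 7.99, 6.05, 8.64 and 7.71 TPM, and PLX3397+Anakinra mice 6.39, 5.19, 3.602, 4.28 and 4.05 TPM. Every mouse given PLX3397, alone or in combination, was thus between the Sham and the Vehicle mice. The group means were 1.54 ± 0.312 (SD, n = 4) in Sham, 14.6 ± 2.26 in Vehicle, 13.6 ± 1.08 with Anakinra, 7.31 ± 1.15 with PLX3397 and 4.70 ± 1.11 TPM with both drugs (SD, n = 5 each). The log2 fold change versus Vehicle was -0.91 with PLX3397 (standard error 0.12, limma adjusted p = 1.1e-05) and -1.46 with the combination (standard error 0.12, adjusted p = 3.1e-09). Between the combination and PLX3397 alone, the log2 fold change was -0.55 (standard error 0.12), which did not pass adjustment in limma (unadjusted p = 0.00015, adjusted p = 0.083).

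The β2 integrins were represented by the shared β chain Itgb2 (CD18) and by 2 α chains, Itgam (CD11b, the α chain of Mac-1) and Itgal (CD11a, the α chain of LFA-1). Itgb2 lies on chromosome 10 (77530329 to 77565708, plus strand), and the α chain genes lie near each other on chromosome 7 (Itgam 128062640 to 128118491 and Itgal 127296139 to 127335137, both on the plus strand). An exon of Itgam shares 210 bases with the GENCODE gene Gm49368 on the same strand, which is not listed in the table, so reads there could belong to either gene. Itgam was the most abundant of these chains. Its levels were 12.5, 13.3, 13.3 and 13.7 TPM in Sham, 81.9, 62.3, 91.9, 89.0 and 84.0 TPM in Vehicle, and 80.1, 82.6, 84.2, 76.9 and 84.9 TPM in Anakinra mice. With PLX3397 they were 24.8, 38.9, 27.3, 32.5 and 28.5 TPM, and with the combination 29.2, 25.3, 20.4, 26.1 and 23.2 TPM. The highest PLX3397 mouse was therefore below the lowest Vehicle mouse. Itgam had the lowest log2 fold change of the 10 genes with PLX3397 versus Vehicle (-1.40, standard error 0.10, limma adjusted p = 1.6e-09) and with the combination (-1.68, standard error 0.10, adjusted p = 5.6e-11).

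Itgb2 had 5.98, 5.11, 4.84 and 5.56 TPM in the Sham mice and 60.5, 42.0, 67.4, 68.2 and 59.5 TPM in the Vehicle mice. It had 59.3, 55.8, 57.4, 57.4 and 64.0 TPM with Anakinra, 24.3, 39.1, 24.8, 24.8 and 30.3 TPM with PLX3397, and 25.4, 18.9, 17.6, 19.8 and 18.3 TPM with both drugs. The PLX3397 mice and the Vehicle mice did not overlap, although the highest PLX3397 mouse (J02, 39.1 TPM) and the lowest Vehicle mouse (J17B, 42.0 TPM) came close. The log2 fold change of Itgb2 was 3.23 in Vehicle versus Sham (standard error 0.13, limma adjusted p = 4.0e-16), -1.03 in PLX3397 versus Vehicle (standard error 0.12, adjusted p = 1.4e-06) and -1.52 in PLX3397+Anakinra versus Vehicle (standard error 0.12, adjusted p = 1.4e-09).

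Itgal was the least abundant of the 10 genes in every group, with 0.786, 0.676, 0.600 and 0.467 TPM in Sham and 2.26, 0.948, 1.86, 2.43 and 1.93 TPM in Vehicle mice. Anakinra mice had 2.31, 1.46, 1.77, 1.87 and 2.31 TPM, PLX3397 mice 0.661, 1.42, 1.02, 1.48 and 1.12 TPM, and PLX3397+Anakinra mice 0.729, 0.851, 0.659, 0.698 and 1.03 TPM. PLX3397 and Vehicle overlapped in Itgal through the Vehicle mouse J17B, and PLX3397+Anakinra overlapped with Vehicle through the same mouse and with Sham. Itgal was lower with PLX3397 than in Vehicle mice (log2 fold change -0.42, standard error 0.13), close to the threshold in limma (adjusted p = 0.0456). With both drugs its level was also lower than in Vehicle mice (by a log2 fold change of -0.66, standard error 0.13, limma adjusted p = 0.00084), and the combination did not differ from Sham beyond the spread (log2 fold change 0.14, standard error 0.14, adjusted p = 0.477). A pseudocount of 1 is large beside levels near 1 TPM, so these log2 fold changes understate the ratios, which were 0.606 for PLX3397 and 0.421 for the combination versus Vehicle.

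The α chains did not change in step. The ratio of Itgal to Itgam TPM, which needs no common scale between mice, was 0.0483 ± 0.0120 (SD, n = 4) in Sham and 0.0227 ± 0.00517 (SD, n = 5) in Vehicle mice, lower in Vehicle by an exact two-sided permutation test (exact p = 0.0159, the smallest that 5 against 4 mice allow; adjusted p = 0.0476 over 4 comparisons). With PLX3397 it was 0.0371 ± 0.00681 (SD, n = 5), higher than in Vehicle (exact permutation p = 0.0238, adjusted p = 0.0476). With PLX3397+Anakinra it was 0.0324 ± 0.00763 (SD, n = 5), which missed the threshold against Vehicle after adjustment (exact permutation p = 0.0476, adjusted p = 0.0635). With Anakinra it was 0.0238 ± 0.00453 (SD, n = 5), a difference of 0.00113 from Vehicle (exact permutation p = 0.722). Single mice overlapped in the comparison of PLX3397 with Vehicle, where mouse J01 (0.0266) lay below the 2 highest Vehicle mice (0.0276 and 0.0273). Both calls stood close to the threshold. Each was lost without any 1 of 13 mice, at adjusted p of 0.0635 to 0.0952, and the differences then ranged from -0.0303 to -0.0207 for Vehicle minus Sham and from 0.0124 to 0.0157 for PLX3397 minus Vehicle. Fewer mice also raise the smallest p that the exact test can give. The ratio of Itgb2 to the sum of its 4 α chain genes (Itgal, Itgam, Itgax and Itgad) was 0.372 ± 0.0399 (SD, n = 4) in Sham and between 0.651 and 0.757 on average in the 4 TBI groups, given as a description without a test.

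**Figure D2:**
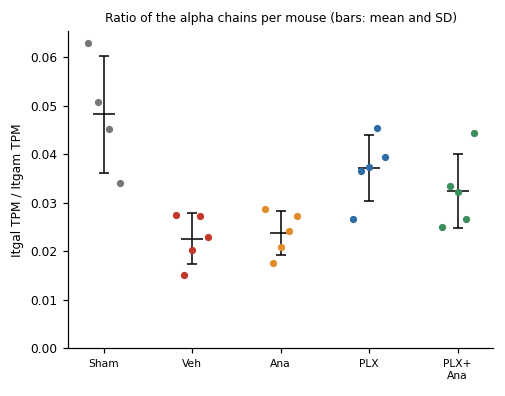
Ratio of Itgal TPM to Itgam TPM (vertical axis, no unit, linear from 0) in each mouse by group; dots are mice, and black bars give the mean and SD. The Sham mice average 0.0483 and the Vehicle mice 0.0227, and the PLX3397 mice (0.0371) lie above most Vehicle mice.

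Cd48 and Cd52 encode small surface proteins anchored to the membrane by a lipid (GPI). CD48 is a ligand of the receptor CD244, and CD52 is a short, heavily glycosylated peptide. Cd48 (chromosome 1, 171681245 to 171705258, plus strand) had 0.929, 0.710, 0.819 and 1.08 TPM in Sham mice and 17.8, 13.6, 17.3, 18.7 and 16.9 TPM in Vehicle mice. Anakinra mice had 12.5, 9.33, 10.6, 14.1 and 14.96 TPM, PLX3397 mice 7.72, 11.3, 5.18, 9.37 and 8.79 TPM, and PLX3397+Anakinra mice 4.36, 5.95, 4.76, 4.69 and 7.12 TPM. Of the 9 genes that were higher in Vehicle than in Sham mice, Cd48 had the lowest level with Anakinra relative to Vehicle, at 73.0% of its mean. Only 2 Anakinra mice reached the lowest Vehicle mouse. This difference did not pass adjustment in limma (log2 fold change -0.44, standard error 0.15, unadjusted p = 0.0071, adjusted p = 0.21). With PLX3397 the log2 fold change of Cd48 versus Vehicle was -0.94 (standard error 0.15) and with the combination -1.496 (standard error 0.15), with limma adjusted p of 7.6e-05 and 3.8e-08.

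Cd52 (chromosome 4, 134093538 to 134095073, minus strand) had the largest rise of the 10 genes after injury, 23.4-fold (log2 fold change 4.33, standard error 0.17, limma adjusted p = 2.8e-16). The Sham mice had 5.37, 7.28, 5.72 and 6.78 TPM and the Vehicle mice 123, 112, 185, 175 and 142 TPM. Anakinra mice had 150, 137, 142, 153 and 133 TPM, PLX3397 mice 52.7, 94.6, 50.7, 78.0 and 79.7 TPM, and PLX3397+Anakinra mice 58.0, 60.9, 34.4, 48.8 and 45.9 TPM. Each mouse given PLX3397 was below each Vehicle mouse, and each was still far above the Sham mice. The SD among Vehicle mice (31.9 TPM) was the largest absolute spread of Cd52 in any group.

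Cd53 encodes a tetraspanin, a protein with 4 membrane passes that organises other surface proteins (chromosome 3, 106758861 to 106790149, minus strand). It had 4.51, 6.68, 5.72 and 6.17 TPM in Sham, 47.0, 39.5, 54.4, 58.2 and 51.4 TPM in Vehicle, and 48.1, 37.6, 41.0, 44.3 and 46.6 TPM in Anakinra mice. PLX3397 mice had 20.7, 30.6, 22.5, 25.3 and 26.4 TPM, and PLX3397+Anakinra mice 18.96, 18.2, 14.4, 16.8 and 16.4 TPM. Cd53 was the single member that differed between the combination and PLX3397 alone, where no values overlapped (log2 fold change -0.53, standard error 0.11, limma adjusted p = 0.0328). In this comparison 0.145% of all genes were called lower, and in 1.13% the groups did not overlap in either direction. The other 8 genes besides Coro1a were lower on average as well, with log2 fold changes from -0.55 to -0.25 that did not pass adjustment, and 7 of these 8 were at an unadjusted p below 0.05, as were 6.71% of all genes. The call of Cd53 was lost without PLX3397 mouse J02, J19 or J20 or PLX3397+Anakinra mouse J09, J10 or J17, and 0 members were then called. Without Vehicle mouse J17B, or without PLX3397+Anakinra mouse J03, 4 members were called. The libraries of Vehicle mice enter this comparison only through the shared estimate of the spread.

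Laptm5 encodes a lysosomal membrane protein of blood cells that lowers the surface level of immune receptors (chromosome 4, 130912890 to 130936148, plus strand). It was the most abundant member in Vehicle and Anakinra mice and ranked below Coro1a in the other groups, with 33.6 to 38.9 TPM in Sham (median 34.8), 157 to 226 TPM in Vehicle (median 219) and 178 to 225 TPM in Anakinra mice (median 182). It had 72.7 to 114 TPM with PLX3397 (median 78.3) and 57.4 to 75.0 TPM with both drugs (median 72.5). The PLX3397 groups lay between Sham and Vehicle without overlap with either. The log2 fold change versus Vehicle was -1.25 with PLX3397 (standard error 0.11, limma adjusted p = 1.4e-08) and -1.57 with the combination (standard error 0.11, adjusted p = 1.5e-10).

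Of the cytoskeletal genes, Lcp1 followed the surface genes and Coro1a did not. Lcp1 encodes L-plastin, which bundles actin filaments in leukocytes (chromosome 14, 75131105 to 75230842, plus strand). An exon of it overlaps the lincRNA gene Gm15628 on the opposite strand by 311 bases, but that gene averaged only 0.0084 TPM, and it shares 42 bases with the antisense gene Gm15629, for which no value was matched. Lcp1 had 5.26 to 6.46 TPM in Sham (median 5.62), 39.5 to 62.5 TPM in Vehicle (median 55.1), 42.1 to 53.5 TPM with Anakinra (median 47.9), 19.6 to 28.1 TPM with PLX3397 (median 25.9) and 13.5 to 21.8 TPM with both drugs (median 16.8). Its log2 fold change versus Vehicle was -1.11 with PLX3397 (standard error 0.12) and -1.58 with the combination (standard error 0.12), with limma adjusted p of 3.2e-07 and 5.1e-10.

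Coro1a encodes coronin 1A, an actin-binding protein of leukocytes that neurons also make (chromosome 7, 126699774 to 126704816, minus strand). It was the most abundant of the 10 genes in Sham mice, with 142, 139, 120 and 119 TPM. Vehicle mice had 113, 115, 120, 119 and 116 TPM, and Anakinra mice 127, 132, 131, 128 and 126 TPM. PLX3397 mice had 106, 106, 111, 99.1 and 92.8 TPM, and PLX3397+Anakinra mice 107, 114, 108, 111 and 95.7 TPM. The Sham mice thus fell into a higher and a lower pair, of which the lower pair overlapped with the Vehicle mice, and every Anakinra mouse was above every Vehicle mouse. In Anakinra versus Vehicle, 2.57% of all genes did not overlap in either direction, and the difference of Coro1a did not pass adjustment in limma (log2 fold change 0.14, standard error 0.05, unadjusted p = 0.013, adjusted p = 0.255).

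Coro1a was lower in Vehicle than in Sham mice by a log2 fold change of -0.15 (standard error 0.06, limma adjusted p = 0.0278), and this call was lost under 5 of the alternatives, with adjusted p of up to 0.508 and with leaving out Sham mouse J07 or J08 or Vehicle mouse J01B among them. It was lower with PLX3397 than in Vehicle mice (log2 fold change -0.18, standard error 0.05, limma adjusted p = 0.0328), which was lost under 8 alternatives (adjusted p of 0.0527 to 0.106). The difference of the combination from Vehicle (log2 fold change -0.12, standard error 0.05, limma adjusted p = 0.118) did not pass. Coro1a was lower than in Sham mice with PLX3397 (log2 fold change -0.33, limma adjusted p = 3.9e-05) and with the combination (log2 fold change -0.27, adjusted p = 0.00042). The summed TPM of 6 neuronal markers also differed between groups, with 5877 to 6190 TPM in Sham, 3642 to 4523 in Vehicle, 3894 to 4375 with Anakinra, 3990 to 4985 with PLX3397 and 4548 to 4898 TPM with the combination. The sum averaged 4024 TPM in Vehicle, 4090 with Anakinra, 4447 with PLX3397 and 4689 TPM with the combination. In the same order, Coro1a averaged 117, 129, 103 and 107 TPM, and its higher level with Anakinra was not called. Of these 6 markers, 5 were lower in Vehicle than in Sham mice. None was at 0 in all libraries of a group. Over the 24 libraries, Coro1a correlated with the mean of these standardised markers at r = 0.12. Over the cell type marker lists described below, r ran from -0.64 (oligodendrocytes) to 0.64 (red blood cells). The part of the neuronal markers in the level of Coro1a was not tested.

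**Figure D3:**
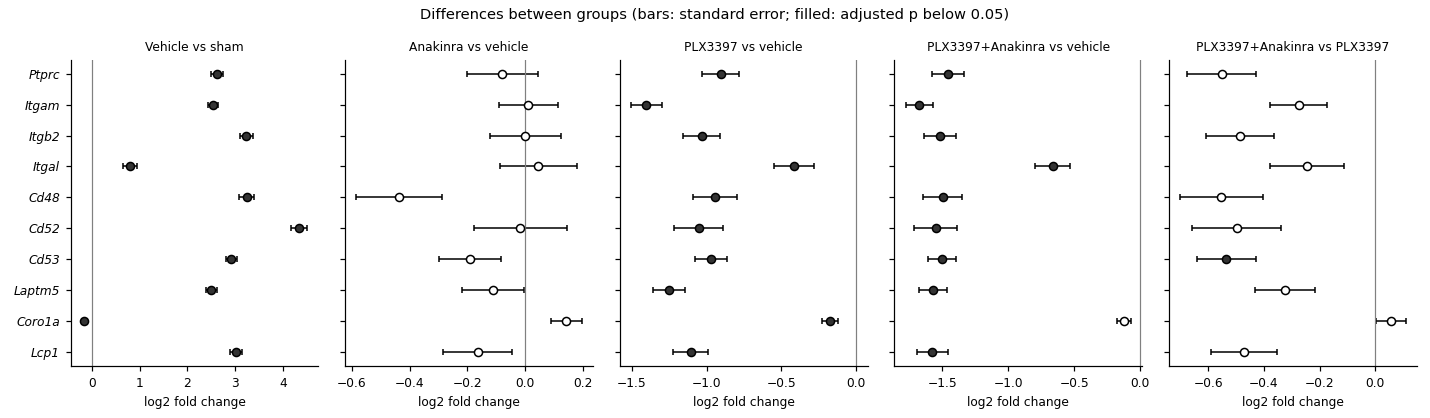
Log2 fold change on the scale of log2(TPM + 1) (horizontal axes, which differ between panels) of each of the 10 genes in 5 comparisons; points are limma estimates, bars are standard errors, and filled points have an adjusted p below 0.05. Filled points lie to the right of 0 for 9 genes in Vehicle versus Sham, where the filled point of Coro1a lies to the left. They lie to the left of 0 for 10 genes in PLX3397 versus Vehicle and 9 in PLX3397+Anakinra versus Vehicle. Only Cd53 is filled in PLX3397+Anakinra versus PLX3397.

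The order of the group means was the same in 8 genes (Ptprc, Itgam, Itgb2, Cd48, Cd52, Cd53, Laptm5 and Lcp1), with Vehicle first, followed by Anakinra, PLX3397, PLX3397+Anakinra and Sham. In none of these 8 did the neighbours Vehicle and Anakinra differ at adjusted p, in all 8 Anakinra differed from PLX3397, and in all 8 the combination differed from Sham. For Itgal the order began with Anakinra and Vehicle, which did not differ, and neither PLX3397 and the combination nor the combination and Sham differed. For Coro1a the order was Sham, Anakinra, Vehicle, PLX3397+Anakinra and PLX3397, and no neighbours differed.

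All 10 genes were lower with PLX3397 than with Anakinra, where 5.41% of all genes were called lower, and all 10 with PLX3397+Anakinra than with Anakinra, where 8.1% of all genes were called lower. The log2 fold changes of the 9 genes without Coro1a ran from -1.41 to -0.46 and from -1.69 to -0.71. The calls of Itgal (adjusted p = 0.0327) and Cd48 (adjusted p = 0.0367) in limma for PLX3397 versus Anakinra were close to the threshold. Compared with Sham, 9 members were higher with PLX3397 and 1 was lower (22.7% and 22.5% of all genes were called higher and lower), and 9 were higher with Anakinra (25.1% of all genes). With the combination, 8 were higher than in Sham and 1 was lower (20.7% and 18.1% of all genes).

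The rise above the Sham mean was then expressed relative to that of the Vehicle mice, for the 9 genes without Coro1a. On average 92.8% of it was found with Anakinra (median over the genes, range 71.5% to 104.6%), 43.0% with PLX3397 (25.1% to 47.5%) and 24.3% with the combination (12.9% to 30.7%). Itgam had the lowest value with PLX3397, 25.1% ± 8.03 (SD, n = 5), and Laptm5 the next lowest, 29.9% ± 9.86 (SD, n = 5). Cd48 had the highest, 47.5% ± 14.1 (SD, n = 5). These values share the Sham and Vehicle means and are given as a description.

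**Figure D4:**
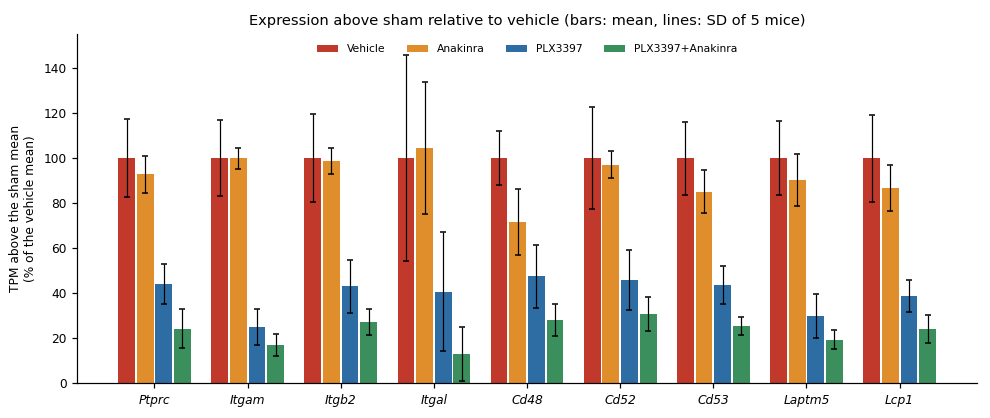
TPM above the Sham mean as a percentage of the Vehicle mean above it (vertical axis, from 0) for 9 genes; bars are group means and lines the SD of 5 mice, and Vehicle is 100% by construction. With PLX3397 the bars lie between 25.1% and 47.5%, and with PLX3397+Anakinra between 12.9% and 30.7%.

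The interaction is 0 if both single-drug effects on the log2 scale sum to the combined effect. It passed adjustment in 0 of the 10 genes (limma). It was called below 0 in 0.0% of all genes, of which 8.08% (1395) were at an unadjusted p below 0.05. It was below 0 in all 10 genes, from -0.49 for Itgb2 to -0.09 for Coro1a, and in limma 4 were at an unadjusted p below 0.05: Ptprc (-0.47, standard error 0.17, adjusted p = 0.516), Itgb2 (-0.49, standard error 0.17, adjusted p = 0.481), Cd52 (-0.48, standard error 0.23, adjusted p = 0.599) and Cd53 (-0.34, standard error 0.15, adjusted p = 0.582). Over the 9 genes without Coro1a the median was -0.31, and it ran from -0.38 to -0.20 with 1 mouse left out. Without Vehicle mouse J17B the interaction ran from -0.39 for Cd52 to -0.05 for Cd48. The genes share the same mice, so their common sign does not count as separate results.

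Mice within a group tended to differ in these genes together, to a degree that varied between pairs. After subtraction of the group means, the correlation of log2(TPM + 1) over the 24 libraries had a median of 0.603 over the 36 pairs of the 9 genes. It was highest for Ptprc and Lcp1 (r = 0.905) and lowest for Cd48 and Laptm5 (r = 0.108). For the 9 pairs with Coro1a the median was -0.03 (range -0.41 to 0.41). These correlations share their libraries and are a description.

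Over all 24 libraries, the median correlation of the 36 pairs was 0.965, which includes the differences between groups. The genes outside the list with the highest correlation were Rab32 for Ptprc (r = 0.992) and Lcp1 (r = 0.996), Pld4 for Itgam (r = 0.995), C1qc for Itgb2 (r = 0.995), Acox3 for Itgal (r = 0.939), Cd84 for Cd48 (r = 0.981), Cd180 for Cd52 (r = 0.996), Ctss for Cd53 (r = 0.996) and Cd37 for Laptm5 (r = 0.995). For Coro1a the highest was Gtpbp2, with r = 0.779. With the mean of the 10 standardised members, the 10 highest (r from 0.991 to 0.996, 24 libraries) included Nckap1l, Ncf1, Dock2, Lgmn, Cd37, Alox5ap, Cyth4, Vav1 and LOC108167440.

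Other genes of leukocyte adhesion, motility and signalling were counted from lists. Of 20 genes of leukocyte integrins and adhesion partners, 14 were expressed highly enough to be tested. Of these 14, 13 were higher in Vehicle than in Sham mice (median log2 fold change 1.08), 6 were lower with PLX3397 (median -0.20) and 8 with the combination versus Vehicle (median -0.42), and 0 were called with Anakinra in limma (1 at an unadjusted p below 0.05). Itgax, the α chain of a further β2 integrin, rose most after injury (log2 fold change 2.66), and the α4 chain gene Itga4 was not called (0.16). Selplg, which encodes the selectin ligand PSGL-1, fell most with the combination (-1.36), and Icam2 was not called (0.04). Icam1, a ligand of the β2 integrins, had log2 fold changes of 2.22 after injury and -0.62 with the combination, Itgax had -0.83 and Cd244, the receptor of CD48, had 1.27 and -0.53, all called.

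Of 22 hematopoietic actin and motility genes, 21 were tested, and Arhgap45 was not matched to the table. All 21 tested were higher in Vehicle than in Sham mice (median 2.14), from Cytip (log2 fold change 0.58) to Capg (3.66), and 0 were called with Anakinra in limma (4 at an unadjusted p below 0.05). With PLX3397 19 of them were lower than in Vehicle mice (median -1.07) and with the combination 20 (median -1.38). Myo1f, an unconventional myosin, fell most with the combination (-1.61), and Lsp1 was the one not called (0.12). Of 18 other pan-leukocyte surface and signalling genes, 17 were higher after injury (median 2.12), 15 lower with PLX3397 (median -0.96) and 17 lower with the combination (median -1.28), while 0 were called with Anakinra in limma (0 at an unadjusted p below 0.05). The highest rise was that of Ly9 (3.34) and the deepest fall with the combination that of Pik3ap1 (-1.47). Ptprcap, which encodes a protein associated with CD45, was not called (-0.21 after injury and 0.30 with the combination).

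For comparison, 9 paralogues of the cytoskeletal and lysosomal members were counted as well. After injury 4 were higher and 5 lower (median -0.16), from Coro2a (-0.55) to Laptm4a (0.49). With PLX3397 0 of the 9 were called versus Vehicle in limma (4 at an unadjusted p below 0.05), and with the combination 1 was higher and 1 lower (Coro1b, -0.15), while Coro2a (0.19) was not called. The median over all genes was 0.01 for both comparisons.

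The markers of single cell types moved as follows, and their part in the levels of the 10 genes was not tested. All 10 markers of homeostatic microglia were higher in Vehicle than in Sham mice, from Slc2a5 (log2 fold change 0.41) to Olfml3 (2.55), and all 10 were lower with PLX3397 and with the combination versus Vehicle, from Sall1 (-0.63) to P2ry12 (-1.68) with the combination. Their summed TPM was 299 to 322 in Sham, 1147 to 1440 in Vehicle, 1247 to 1425 with Anakinra, 496 to 748 with PLX3397 and 453 to 621 with both drugs. Of 7 border macrophage markers, 5 were higher and 1 (Lyve1, -0.37) lower in Vehicle than in Sham mice, and 6 were lower with PLX3397 and 6 with the combination, with Pf4 at 3.77 and -2.88. Their sum was 75.7 to 156.5 TPM in Vehicle, 34.5 to 69.7 with PLX3397 and 13.6 to 20.6 with both drugs, without overlap between the last pair of groups, and 11.4 to 14.4 TPM in Sham and 73.5 to 107.6 with Anakinra.

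Several markers of infiltrating cells were below the filter of 0.5 TPM. Of 5 monocyte markers 4 were tested, of which all 4 were higher after injury, 1 was lower with PLX3397 and 2 with the combination versus Vehicle (Ccr2, -1.005, the lowest). Their sum, most of it from Fn1, was 21.05 to 32.4 TPM in Sham, 55.9 to 148.8 in Vehicle, 134.5 to 216.3 with Anakinra, 88.6 to 160.4 with PLX3397 and 94.8 to 146.3 with both drugs. Fn1 alone averaged 107 TPM in Vehicle, 160 with Anakinra, 121 with PLX3397 and 121 TPM with both drugs. In the same order, Ccr2 averaged 2.23, 2.16, 0.800 and 0.596 TPM, and Ly6c2 averaged 1.42, 2.98, 2.00 and 0.964 TPM. Of 8 neutrophil markers 3 were tested, all 3 higher after injury, and 1 (Mmp8, -1.54 with the combination) was lower with Anakinra, with PLX3397 and with the combination versus Vehicle. The defining gene Ly6g was at 0 in 21 of the 24 libraries, and the sum was 0.514 to 3.82 TPM in Sham, 6.85 to 39.3 in Vehicle, 11.9 to 49.1 with Anakinra, 14.03 to 50.2 with PLX3397 and 10.5 to 27.1 with both drugs.

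Of 8 T cell markers only Cd4 and Lck were tested, of which neither was called by limma in Vehicle versus Sham (0 at an unadjusted p below 0.05) or in the drug comparisons with Vehicle (0 with PLX3397, 1 with Anakinra and 1 with the combination). Cd3e was at 0 in 10 and Cd3d in 15 of the 24 libraries. The sum, most of it from Cd4, was 16.9 to 17.7 TPM in Sham and 15.6 to 23.5 over the TBI groups. Of 5 B cell markers only Cd79b was tested (log2 fold change 1.18 after injury, -0.68 with the combination, both called), and the sum was 1.03 to 3.42 TPM over all mice. All 6 markers of natural killer and cytotoxic cells were below the filter, with sums of 0.0476 to 2.59 TPM. The 5 red blood cell genes were not called in Vehicle versus Sham by limma (0 at an unadjusted p below 0.05), and all 5 were lower with PLX3397 (median log2 fold change -1.81) and with the combination (median -1.77), with Hbb-bs at -1.85. Their sum was 1507 to 4406 TPM in Vehicle and 606 to 1072 TPM with PLX3397.

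Of the other brain cells, 4 of 4 astrocyte markers were higher in Vehicle than in Sham mice (Gfap 4.06, Slc1a2 0.22), as were 4 of 4 oligodendrocyte markers (Mbp 0.23) and 3 of 4 endothelial markers (Cldn5 0.52). None of these 12 genes was called with the combination versus Vehicle in limma (2 at an unadjusted p below 0.05), with log2 fold changes from -0.19 (Cldn5) to 0.10 (Mbp). Of the 6 neuronal markers, 4 were higher with the combination than in Vehicle mice, and the highest was Slc17a7 (0.29).

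**Figure D5:**
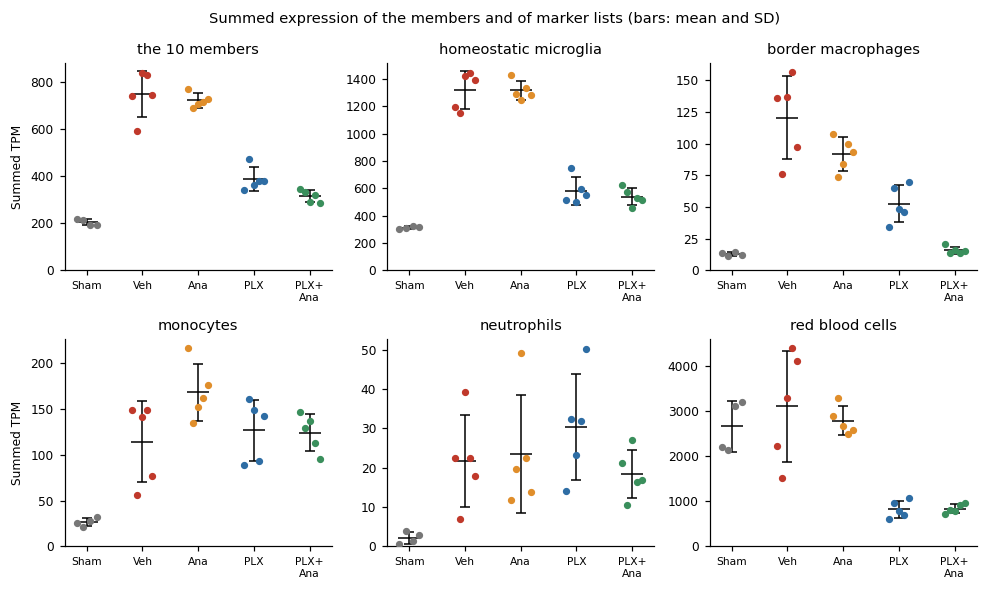
Summed TPM (vertical axes, linear from 0) of the 10 genes and of 5 marker lists in each mouse by group; dots are mice, and black bars give the mean and SD. The members and the microglial markers are high with Vehicle and Anakinra and lower in both PLX3397 groups. The neutrophil sum and the monocyte sum, most of it from Fn1, overlap between the TBI groups.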

How the data were processed

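Bulk polyA RNA-seq of lesional and perilesional brain tissue was analysed for 24 mice in 5 groups taken from the sample labels. The authors mapped the reads to the mouse genome (mm10, GRCm38) with CLC Genomics Workbench and deposited values labelled TPM, a unit scaled for gene length and library size. The paper adds that CLC names this unit CPM. Whether the values are scaled by gene length was not checked here, and comparisons of level between genes rest on it. The counting of strand is not given in the sources used here. The full table was used. A rounded copy served as an alternative, and a filtered table, which also holds the authors' own p and F values, was not used. No read counts were used, which leaves the depth unknown, and counting error is not given.

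Values were transformed as log2(TPM + 1), and genes averaging 0.5 TPM or more across the libraries were fitted with limma 3.58.1 (R 4.3.3, trend) with 1 mean per group. All groups shared 1 estimate of the spread. Calls had a Benjamini-Hochberg adjusted p below 0.05 over all genes tested. The fit was tested on simulated data. Ratios of Itgal to Itgam were compared by exact two-sided permutation tests (Python 3.11.15, scipy 1.17.1) with adjustment over 4 comparisons. P-values measure the spread between mice of 1 experiment.

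The members and lists were chosen with earlier results of these data known. Named genes were the 10 members, the genes with the highest and lowest log2 fold change of each list in Vehicle versus Sham and in PLX3397+Anakinra versus Vehicle, and Cd244, Icam1 and Itgax. The genes most like each member, and the 10 most like their mean, were also named. Other marker genes were named after their values were seen. A few genes that these rules name are not reported here. Alternatives were a pseudocount of 0.1, no filter or a filter at 5 TPM, the log2 of the ratio or 0.1 TPM added to it, rescaling by median ratios, the rounded table, fits of the compared groups alone, quality weights, a block by animal number, the study's criteria and leaving out each mouse. Sequences came from RefSeq tables (GRCm38.p6). Proteins were not used here.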

Additional observations from a re-analysis of the deposited data

Results flagged for a closer look

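Of the 55 groups of 4 or 5 mice tested over the 10 genes and the Itgal to Itgam ratio, 3 held a mouse whose distance from its nearest neighbour was large beside the range of its group, by Dixon's criterion, and chance gives about 1 in 20. Itgb2 in PLX3397+Anakinra mouse J03 was 25.36 TPM, above the other 4 mice of its group (17.6 to 19.8 TPM), with a gap of 0.711 of the range. Laptm5 in Vehicle mouse J17B was 157.1 TPM, below the other Vehicle mice (209 to 226 TPM), with a gap of 0.749 of the range. Laptm5 in Anakinra mouse J05 was 224.7 TPM, above the other Anakinra mice (178 to 188 TPM), with a gap of 0.775 of the range.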

How the results depend on the processing

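With 1 mouse left out, the number of members called ran from 8 to 10 in PLX3397 versus Vehicle and versus Anakinra and from 9 to 10 in Vehicle and in PLX3397 versus Sham. In the combination versus PLX3397, where 1 member was called, 0 members were called with no filter, in a fit of the compared groups alone, with a block by animal number and by the study's 3 criteria, and 0 to 4 when 1 mouse was left out (4 without Vehicle mouse J17B, when Ptprc, Itgb2 and Lcp1 joined Cd53). The study's criteria, which also demand a 2-fold change and 4 TPM, called 5 members in PLX3397 versus Vehicle, 4 in PLX3397 versus Anakinra and 5 in PLX3397+Anakinra versus Sham. For the Itgal to Itgam ratio with 1 mouse left out, the difference was -0.0303 to -0.0207 for Vehicle versus Sham, 0.0124 to 0.0171 for PLX3397 versus Vehicle and -0.000733 to 0.00266 for Anakinra versus Vehicle, and that of the combination versus Vehicle passed at 0.0125 (exact permutation test, adjusted p = 0.0318) with 0.1 TPM added; the cause was not tested.

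Signs turned in uncalled log2 fold changes near 0. In Anakinra versus Vehicle these were Itgam (-0.0360 with quality weights, -0.110 with the block, -0.0833 to 0.0546 with 1 mouse left out), Itgb2 (-0.0664, -0.141 and -0.117 to 0.0545), Itgal (-0.0444 with quality weights and -0.0895 to 0.114) and Cd52 (0.00165 after rescaling and -0.108 to 0.0714). In Anakinra versus Sham it was Coro1a (0.0290 after rescaling, 0.0140 with quality weights, -0.0468 to 0.0361 with 1 mouse left out).

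Calls close to the threshold were lost under several settings, namely Itgal in PLX3397 versus Vehicle under 18 (limma adjusted p of 0.0501 to 0.163), Cd48 in PLX3397 versus Anakinra under 10 and Cd53 in the combination versus PLX3397 under 9 (adjusted p of 0.0699 to 0.193). The block by animal number linked J01, J17, J19 and J20 across groups. Its pairs correlated at 0.173, 0.318, -0.134 and -0.0656 in their deviations. Mice without a shared number were not compared in this way, so this check cannot tell whether the numbers pair the mice. With the block Coro1a was called in PLX3397+Anakinra versus Vehicle (-0.19, limma adjusted p = 0.0241). Without depth, the precision of low genes such as Itgal is unknown beyond the spread between mice.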
